A study of Mus musculus with 45 samples.

Results

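Adipocytes of insulin-resistant mice kept on a chow diet for 16 weeks (DC16, n = 5) were compared with those of mice of the same genotype kept on it for 8 weeks (DC8, n = 7), over 45037 probe sets. These are 12 of the 45 arrays of the study, 1 array per mouse, and they were taken by group label alone. The mice were C57BL/6 females that lacked ApoE and carried 1 deleted copy of the insulin receptor gene and of the insulin receptor substrate 1 gene (IR+/- IRS1+/- ApoE-/-, called D). The diets began at 8 weeks of age, so DC16 mice were 24 and DC8 mice 16 weeks old, and time on the diet and age cannot be told apart. Both groups share these alleles, and no wild-type group was analysed here. The other groups are D mice on a Western diet for 16 or 8 weeks (DW16, DW8), ApoE-/- mice without the other deletions on a Western diet for 16 or 8 weeks (EW16, EW8) and on chow for 16 weeks (EC16). Adipocytes came from the parametrial and periovarian fat of random-fed mice killed in the morning. The cells were isolated from whole fat and not sorted, and in such a sample fewer cells of a type and less RNA per cell cannot be told apart. Values are log2 signals normalized by RMA (robust multi-array average, which combines the probes of a probe set into 1 value per array), and a difference of 1 is a 2-fold change.

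White adipocytes make fatty acids from glucose and store them as triglyceride, and insulin drives this through the transcription factors SREBP1c, encoded by Srebf1, and ChREBP, encoded by Mlxipl. The related factor SREBP2, encoded by Srebf2, governs the genes of cholesterol synthesis. Around each fat cell lies a matrix of collagens made by adipocytes and by the fibroblast-like cells of the tissue, and young, growing fat expresses imprinted growth genes such as Mest.

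The labelled cell type was seen in the markers. Adipoq, which encodes adiponectin, averaged 14.58 ± 0.02 in DC16 and 14.62 ± 0.03 in DC8 (SD), near the top of the array's scale. Of 10 adipocyte markers 1 was higher and 2 lower at an unadjusted p under 0.05 (30%, beside 9.71% of all genes). Of the 10, 9 had a negative difference, and their mean level was 12.33 to 12.76 in DC16 and 12.53 to 12.80 in DC8. None of 8 mesothelial, 7 T and NK cell, 6 epithelial, 4 smooth muscle, 3 skeletal muscle and 2 pancreas markers was past that p. Of 5 ovary markers 1 was lower (20%) and of 2 erythroid markers 1 was higher (50%). The mesothelial list had a median difference of -0.21 and a mean level of 6.22 to 7.57 in DC16 and 6.31 to 7.91 in DC8. Macrophage, endothelial, stromal and B cell markers stand beside the results they touch. DC16 mouse 4 stood apart from the other 11 mice on the first principal component (86.6, against -21.3 to 0.50 for the others), which carried 29.9% of the variance. DC8 mouse 3 stood apart on the second (61.5, against -29.3 to 15.4), which carried 20.7%. The array of DC16 mouse 4 also had the lowest SD of signal (2.39) and the lowest median correlation with the other arrays (0.981), and the cause was not tested. Each list count below was therefore also taken without these 2 mice.

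No probe set passed an adjusted p under 0.01 in DC16 against DC8 (0% of 45037, limma with Benjamini-Hochberg adjustment), nor under 0.05. The smallest adjusted p was 0.0661 and was shared by 5 probe sets (0.0111%). At an unadjusted p under 0.05 stood 3934 probe sets (8.74%), of which 2095 (4.65%) were higher and 1839 (4.08%) lower in DC16. SAM, a permutation-based test of the same 12 arrays, called 8 probe sets at q under 0.01, of which 7 were higher and 1 lower in DC16. They were Elovl3, Homer2, Aqp11, Foxred2, Syne2, Mbnl2, Lasp1 and a probe set left unnamed by the annotation table used here, which the study's own annotation names EP400, and limma called none of them. The values of all DC16 mice lay outside the range of the DC8 mice for 302 probe sets (0.671%), above it for 178 (0.395%) and below it for 124 (0.275%). The genes below are therefore those with the smallest p, not genes that passed the test.

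Elovl3, an enzyme that lengthens fatty acids and is induced in cold-exposed brown fat, led the genes higher in DC16. Its signal was 7.12, 7.62, 7.28, 7.96 and 8.20 in the DC16 mice, against 6.28, 6.56, 6.72, 6.45, 6.35, 6.63 and 6.42 in the DC8 mice. The groups did not overlap, the lowest DC16 mouse standing above the highest DC8 mouse. The difference was 1.15 (SE 0.16, adjusted p = 0.0661), a 2.22-fold higher signal. Thrsp, a nuclear protein that promotes the transcription of lipogenic enzymes, was 11.72, 12.01, 12.05, 11.82 and 12.27 in DC16 mice, against 11.69, 10.80, 10.37, 10.24, 10.67, 10.13 and 11.10 in DC8 mice. Its groups were separated only by the narrow gap above DC8 mouse 1, and the difference was 1.26 (SE 0.22, adjusted p = 0.141). The other Thrsp probe sets had differences of 0.23 and 0.15, the first at a level of 14.48 in DC16 and 14.26 in DC8.

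Pank1, the kinase that starts coenzyme A synthesis, averaged 8.00 ± 0.44 in DC16 and 7.01 ± 0.16 in DC8 (SD), with no overlap between the groups. A second Pank1 probe set also separated them, at 7.91 ± 0.13 in DC16 and 7.32 ± 0.19 in DC8. Homer2, a scaffold protein, was 7.68, 8.25, 8.13, 8.60 and 8.31 in DC16 mice, against 7.04, 6.92, 6.61, 6.81, 7.50, 6.98 and 7.55 in DC8 mice. All DC16 values lay above the highest DC8 value, and the difference was 1.14 (SE 0.18, adjusted p = 0.105). Aqp11, a water channel of the endoplasmic reticulum, averaged 6.56 ± 0.16 in DC16 and 5.90 ± 0.20 in DC8. That was not the Aqp11 probe set with the highest average signal, whose values are not given here. Mpzl2, a cell adhesion protein, averaged 8.16 ± 0.27 in DC16 and 7.24 ± 0.33 in DC8. Cyp26b1, which degrades retinoic acid, averaged 7.84 ± 0.42 in DC16 and 6.89 ± 0.29 in DC8, and its groups overlapped through DC16 mouse 2 at 7.11.

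The remaining genes of this direction were Foxred2, of protein quality control in the endoplasmic reticulum, Dnmt3l, a partner of DNA methyltransferases, the transcription factors Zfhx4 and Meis2, Tekt1, a protein of cilia, and Atp8a1, a phospholipid flippase, with differences from 0.45 for Meis2 to 1.07 for Dnmt3l. The Meis2 and Atp8a1 probe sets were not those with the highest average signal of their genes, whose values are not given here. Syne2 and Mbnl2 complete the 15. For Syne2, which anchors the nucleus to the cytoskeleton, the leading probe set differed by 0.80 while its 3 other probe sets differed by -0.10, -0.03 and 0.08. For Mbnl2, a splicing regulator, the leading probe set differed by 0.64 while the others ranged from -0.47 to -0.04. Both values rest on 1 probe set, and the probe set with the highest signal had a negative difference in each gene.

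Lasp1, an actin-binding adaptor, had the smallest p among the genes lower in DC16. Its signal was 10.28, 10.18, 10.22, 10.04 and 10.05 in DC16 mice, against 10.65, 10.76, 10.77, 10.73, 10.62, 10.76 and 10.61 in DC8 mice. The groups were clearly apart, with a difference of -0.55 (SE 0.07, adjusted p = 0.0661). The other Lasp1 probe sets ranged from -0.37 to -0.01, all of them negative.

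Col5a1 and Col6a1 were the members of the matrix list among the 15 genes with the smallest p in this direction. Col5a1, a collagen that starts fibril assembly, was 10.62, 9.92, 10.33, 10.27 and 10.37 in DC16 mice, against 10.60, 10.95, 11.06, 11.19, 11.09, 11.20 and 11.29 in DC8 mice. Only DC16 mouse 1 and DC8 mouse 1 met, and the difference was -0.75 (SE 0.13, adjusted p = 0.132), with the 2 other Col5a1 probe sets at -0.63 and -0.52. Prelp, a leucine-rich matrix proteoglycan, averaged 10.49 ± 0.51 in DC16 and 11.72 ± 0.48 in DC8 (SD), and its second probe set differed by -1.09 without overlap. Itgav, the integrin subunit that binds vitronectin, averaged 10.25 ± 0.26 in DC16 and 10.80 ± 0.12 in DC8, and its remaining probe sets ranged from -0.68 to 0.05. Srpx2, a secreted protein, averaged 8.14 ± 0.16 in DC16 and 8.84 ± 0.32 in DC8. Col6a1 is described with its list below.

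Csf2, the cytokine GM-CSF, was 7.48, 7.13, 6.62, 6.60 and 6.96 in DC16 mice, against 7.95, 7.76, 8.86, 8.56, 7.72, 8.75 and 7.55 in DC8 mice. The groups did not overlap, and the difference was -1.21 (SE 0.24, adjusted p = 0.174). C2, a complement protease, differed by -0.57, -0.55 and -0.44 in its 3 probe sets. Wfdc21, a secreted protein of the whey acidic protein family, averaged 8.89 ± 0.29 in DC16 and 9.95 ± 0.44 in DC8, and Lgals3bp, a galectin-binding glycoprotein, 10.49 ± 0.21 in DC16 and 11.14 ± 0.27 in DC8. Casp12, a caspase of the endoplasmic reticulum, differed by -0.67 and -0.72 in its 2 probe sets, both without overlap.

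Adcy5, which makes cyclic AMP, averaged 9.12 ± 0.45 in DC16 and 10.11 ± 0.28 in DC8. Its other probe sets differed by -0.20, -0.01 and 0.01. Eda2r, a receptor for ectodysplasin A2, was 6.98, 6.34, 6.42, 5.29 and 6.63 in DC16 mice, against 7.33, 7.37, 7.44, 7.34, 7.17, 7.40 and 7.19 in DC8 mice. The DC8 values were tight and all above the DC16 values, and the difference was -0.99 (SE 0.21, adjusted p = 0.178). Pxdc1 differed by -0.76 and Sox11, a transcription factor of development, by -0.56. The Sox11 value is not from its probe set with the highest average signal, which is not given here.

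**Figure D1:**
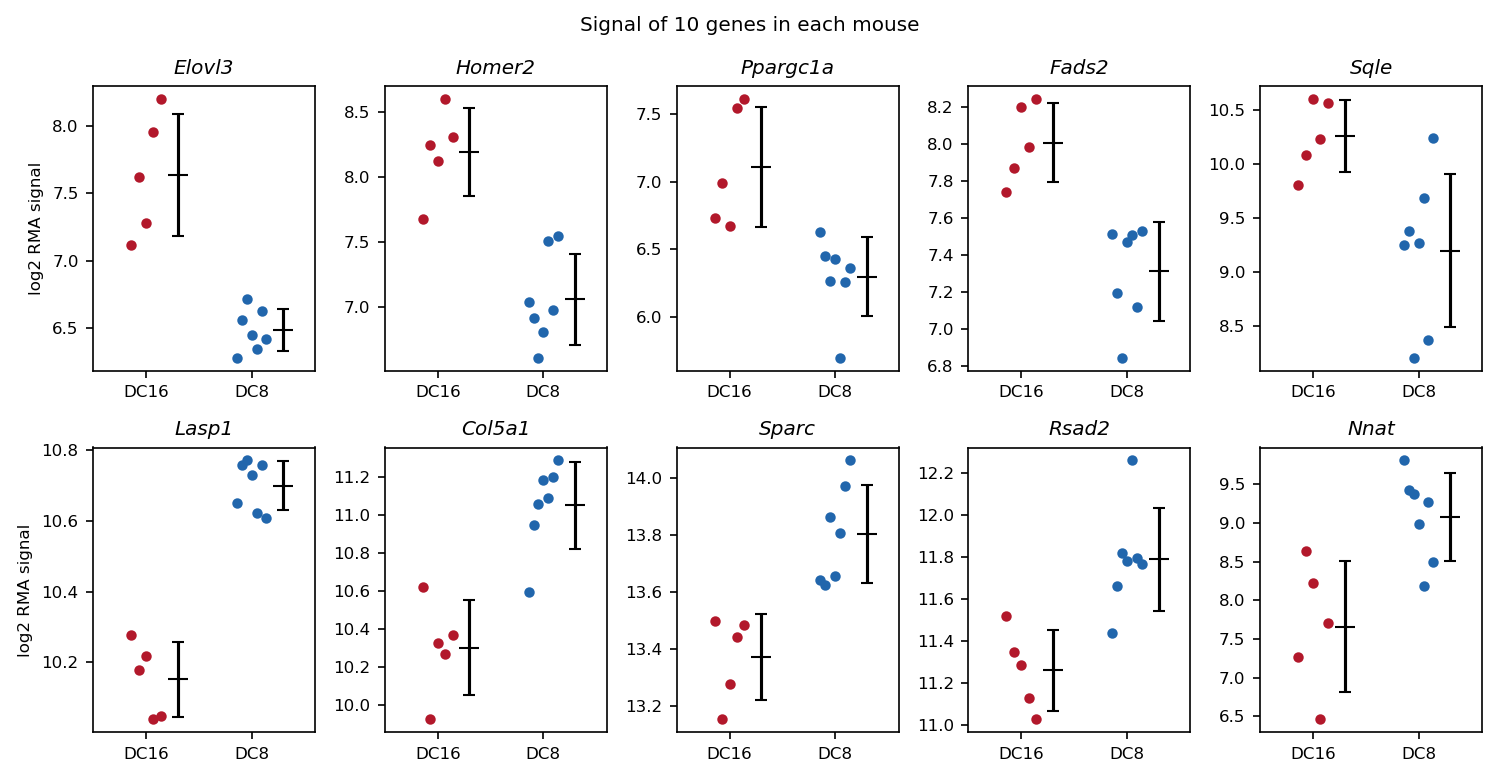
Signal of 10 genes (y axis, log2 RMA signal) in each of the 5 DC16 and 7 DC8 mice (x axis), with the mean and SD of each group beside the points. Elovl3, Homer2, Ppargc1a, Fads2, Lasp1 and Sparc do not overlap between the groups, while Sqle, Col5a1, Rsad2 and Nnat overlap in 1 or more mice.

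Lipid synthesis genes lay higher in DC16. All 24 measured genes of the list of lipogenesis and triglyceride synthesis had a positive difference, against 45.4% of all 18193 genes. At an unadjusted p under 0.05, 15 were higher and 0 lower in DC16, beside 4.2% of all genes higher and 5.51% lower (9.71% in all). The median difference was 0.39, against -0.01 over all genes, and the groups did not overlap for 9 of the 24, beside 0.44% of all genes higher (0.808% in either direction). The smallest adjusted p of the list was 0.174, for Fads2.

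Fads2, the desaturase that begins the synthesis of long polyunsaturated fatty acids, was 7.74, 7.87, 8.20, 7.98 and 8.24 in DC16 mice, against 7.51, 7.20, 6.84, 7.47, 7.51, 7.12 and 7.53 in DC8 mice. Every DC16 value was above every DC8 value. Mlxipl, the transcription factor ChREBP, averaged 11.31 ± 0.27 in DC16 and 10.53 ± 0.54 in DC8. Srebf1, the other regulator of the pathway, averaged 12.76 ± 0.33 in DC16 and 12.34 ± 0.25 in DC8. Slc25a1, which exports citrate from mitochondria, averaged 13.37 ± 0.25 in DC16 and 12.58 ± 0.57 in DC8, and Agpat2, an acyltransferase of triglyceride synthesis, 13.45 ± 0.18 in DC16 and 13.00 ± 0.30 in DC8.

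In some of these genes a pair of DC8 mice was low. Elovl6, the elongase of palmitate, was 14.11, 14.08, 14.18, 14.12 and 14.12 in DC16 mice, against 13.93, 13.77, 10.87, 13.76, 13.64, 11.88 and 13.82 in DC8 mice. DC8 mice 3 and 6 were far below the other 5, yet those 5 were also below every DC16 mouse. Me1, the NADPH-producing malic enzyme, showed the same 2 mice low, at 11.96 and 12.80, while the other DC8 mice ran between 13.83 and 14.05 and the DC16 mice between 14.09 and 14.29. Scd1, the main desaturase, was between 14.81 and 14.85 in DC16 and between 14.76 and 14.85 in DC8, and like Fasn (14.56 ± 0.03 in DC16, 14.28 ± 0.36 in DC8) it stood near the top of the scale. Over the whole list the mean level was 12.77 to 12.87 in DC16 mice and 11.83 to 12.64 in DC8 mice, so the groups did not meet. DC8 mice 3 and 6 had list levels of 11.83 and 12.01, against 12.56 to 12.64 in the other DC8 mice. The median difference was 0.31 without DC8 mouse 3 and 0.32 without DC8 mouse 6. Each of these fits kept the other low mouse, and no fit left out both. Without DC16 mouse 4 and DC8 mouse 3 the median was 0.31, and 10 genes were higher at an unadjusted p under 0.05.

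Cholesterol synthesis ran the same way. All 19 measured genes of its list had a positive difference, 12 were higher and 0 lower at an unadjusted p under 0.05, and the median was 0.56. No gene of the list was free of overlap between the groups, and the smallest adjusted p was 0.232, for Fdft1. Sqle, the squalene epoxidase, was 9.80, 10.08, 10.60, 10.23 and 10.57 in DC16 mice, against 9.25, 9.38, 8.20, 9.26, 9.68, 8.36 and 10.24 in DC8 mice. DC8 mice 3 and 6 were again the lowest, and DC8 mouse 7 reached the DC16 range. Mvd, which makes isopentenyl diphosphate, averaged 9.19 ± 0.56 in DC16 and 7.98 ± 0.72 in DC8, Lss, the lanosterol synthase, 10.38 ± 0.64 in DC16 and 9.27 ± 0.60 in DC8, and Cyp51, the lanosterol demethylase, 10.42 ± 0.22 in DC16 and 9.55 ± 0.57 in DC8.

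Insig1, which holds SREBPs in the endoplasmic reticulum, was 9.59, 10.37, 10.51, 12.39 and 10.60 in DC16 mice, against 9.68, 9.36, 10.34, 9.02, 9.49, 8.90 and 9.94 in DC8 mice. DC16 mouse 4 was far above all the others. Srebf2 itself averaged 7.27 ± 0.11 in DC16 and 7.24 ± 0.10 in DC8, and Hmgcs1, an early enzyme of the pathway, 11.97 ± 0.36 in DC16 and 11.85 ± 0.30 in DC8. Without DC16 mouse 4 and DC8 mouse 3, 11 genes of the list were higher at an unadjusted p under 0.05, and the median was 0.47.

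Promoters are shown for the 3 genes of the list with the smallest p that had a window in the RefSeq table. Windows run from 250 bases before to 50 after a gene's start (GRCm38.p6), and 15 of the 19 genes were matched. Motifs searched on both strands were the CCAAT box of NF-Y (CCAAT), a sterol response element (TCACNCCAC) and the E box (CACGTG). A gene counts if any of its windows holds the motif. The CCAAT box was found in 15 of 15 genes, against 41.1% of the 27025 genes with a window. The E box was found in 4 of 15, against 8.09%, and the sterol response element in 1 of 15, against 1.44%. Of the lipogenesis genes with a window 12 of 19 held the CCAAT box (63.2%), and of the matrix genes 9 of 20 (45%). These shares follow from the members of each list and would be the same whatever the signal in DC16 and DC8. A match is a run of letters, not a shown binding site. Capitals mark the CCAAT box on either strand, in windows at chr5:4104648-4104947 (minus strand, Cyp51), chr8:122443373-122443672 (minus strand, Mvd) and chr10:76531355-76531654 (plus strand, Lss).
Cyp51: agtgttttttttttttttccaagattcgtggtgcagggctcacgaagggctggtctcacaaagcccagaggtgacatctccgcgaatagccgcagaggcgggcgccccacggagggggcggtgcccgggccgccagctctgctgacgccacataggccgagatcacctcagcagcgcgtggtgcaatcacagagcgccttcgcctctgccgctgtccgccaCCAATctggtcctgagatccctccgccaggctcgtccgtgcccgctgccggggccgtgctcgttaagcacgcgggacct
Mvd: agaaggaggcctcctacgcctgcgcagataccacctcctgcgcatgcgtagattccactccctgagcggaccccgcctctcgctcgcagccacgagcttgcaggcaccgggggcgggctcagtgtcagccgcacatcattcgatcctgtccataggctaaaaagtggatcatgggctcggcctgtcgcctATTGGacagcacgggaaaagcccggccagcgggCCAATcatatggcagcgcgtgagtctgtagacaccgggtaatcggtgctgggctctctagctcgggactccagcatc
Lss: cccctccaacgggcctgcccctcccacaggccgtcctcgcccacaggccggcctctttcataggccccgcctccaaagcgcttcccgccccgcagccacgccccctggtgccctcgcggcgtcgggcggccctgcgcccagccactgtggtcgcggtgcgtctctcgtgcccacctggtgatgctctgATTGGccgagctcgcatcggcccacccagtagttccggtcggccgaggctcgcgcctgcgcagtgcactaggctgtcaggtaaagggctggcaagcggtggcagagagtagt

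**Figure D2:**
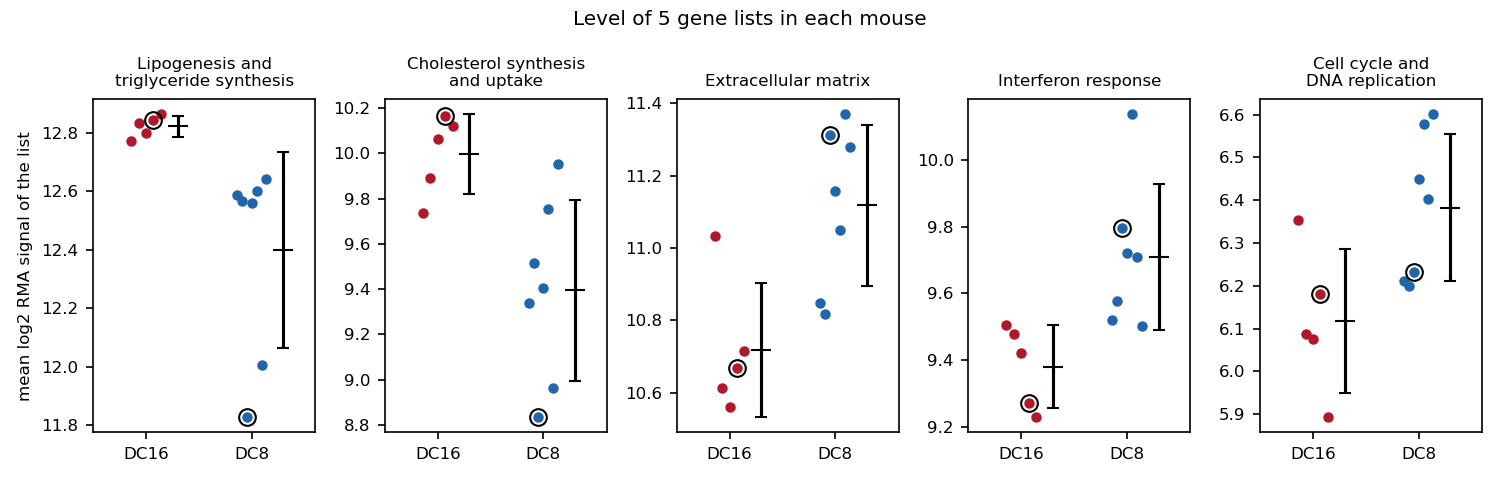
Mean log2 RMA signal of 5 gene lists (y axis) in each DC16 and DC8 mouse (x axis), with the mean and SD of each group beside the points and open rings on DC16 mouse 4 and DC8 mouse 3. The lipogenesis list does not overlap between the groups, the cholesterol list has 2 DC8 mice inside the DC16 range, and the matrix, interferon and cell cycle lists each have 1 DC16 mouse inside the DC8 range.

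The lists of mitochondrial energy use differed among themselves. Of 30 oxidative phosphorylation genes 27 had a positive difference, with a median of 0.10. At an unadjusted p under 0.05, 6 were higher and 0 lower (20%, beside 9.71% of all genes). Sdhd, a subunit of complex II, averaged 11.57 ± 0.15 in DC16 and 11.08 ± 0.24 in DC8, and Ndufs1, of complex I, 11.77 ± 0.08 in DC16 and 11.43 ± 0.24 in DC8, both without overlap. Of 23 genes of branched-chain amino acid breakdown and the TCA cycle 5 were higher and 0 lower, among them Cs, the citrate synthase, at 12.99 in DC16 and 12.68 in DC8. That list had 14 positive and 9 negative differences and a median of 0.04, and its count was 3 higher without DC8 mouse 3, and 2 higher and 1 lower without DC16 mouse 4 as well. Of 21 fatty acid oxidation genes 1 was higher and 1 lower (9.52%, beside 9.71% of all genes), with 11 positive and 10 negative differences.

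Of 16 thermogenic genes 5 were higher and 1 lower at an unadjusted p under 0.05 (37.5%, beside 9.71% of all genes). Ppargc1a, the coactivator of mitochondrial genes, was 6.73, 6.99, 6.67, 7.54 and 7.61 in DC16 mice, against 6.63, 6.45, 6.26, 6.43, 5.70, 6.26 and 6.36 in DC8 mice. The groups did not overlap, with the nearest mice at 6.67 in DC16 and 6.63 in DC8. Cidea, a lipid droplet protein, averaged 8.46 ± 0.70 in DC16 and 7.69 ± 0.60 in DC8. Ucp1, the uncoupler of brown fat, averaged 6.92 ± 0.84 in DC16 and 6.95 ± 1.13 in DC8, with wide spread in both groups.

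The matrix list was the lowest of all. Of its 34 measured genes 33 had a negative difference, and 16 were lower and 0 higher in DC16 at an unadjusted p under 0.05, with a median of -0.38. The smallest adjusted p was 0.132, for Col5a1. Col6a1, a chain of the microfibrillar collagen that surrounds fat cells, was 12.01, 11.14, 11.49, 11.85 and 11.61 in DC16 mice, against 12.04, 12.07, 12.44, 12.33, 12.24, 12.62 and 12.51 in DC8 mice. The groups did not overlap, although DC16 mouse 1 at 12.01 came close to DC8 mouse 1 at 12.04. Sparc, a collagen-binding protein, was 13.50, 13.15, 13.28, 13.44 and 13.49 in DC16 mice, against 13.64, 13.63, 13.86, 13.66, 13.81, 13.97 and 14.06 in DC8 mice, again without overlap.

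Col6a3, Col5a2, Col4a2 and Col6a2 differed by -0.67, -0.53, -0.38 and -0.64, and Thbs2, a thrombospondin, by -1.03. Dcn, a proteoglycan of fibroblasts, averaged 13.94 ± 0.16 in DC16 and 13.82 ± 0.29 in DC8 and was the only member above 0. Among 7 stromal progenitor markers, 2 were lower at an unadjusted p under 0.05, Col1a1 (-0.81) and Col3a1 (-0.51), which the matrix list also holds. The mean level of that list ran from 9.78 to 10.66 in DC16 and from 9.87 to 10.95 in DC8, and its part in the matrix result was not tested. DC8 mice 3 and 6, the lowest in the lipid synthesis lists, had the highest DC8 stromal levels (10.95 and 10.82). They also had the highest matrix list levels (11.31 and 11.37), so the lipid and matrix results are not independent of these mice. Of 8 endothelial markers 3 were lower, among them Cdh5 at 9.12 in DC16 and 9.70 in DC8, and 1 was higher, Kdr. Without DC16 mouse 4 the endothelial count was 1 lower and 0 higher. Of 17 matrix proteases and inhibitors 5 were lower and 0 higher, among them Timp4 (-0.89), and 3 were lower and 1 higher without DC8 mouse 3. Of 24 genes of TGF-beta and BMP signaling 4 were lower and 0 higher (16.7%, beside 9.71% of all genes). Tgfb1 was at 6.52 in DC16 and 7.33 in DC8. Without DC16 mouse 4 and DC8 mouse 3 the matrix count was 17 and its median -0.37, and the TGF-beta list had 1 lower and 1 higher.

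**Figure D3:**
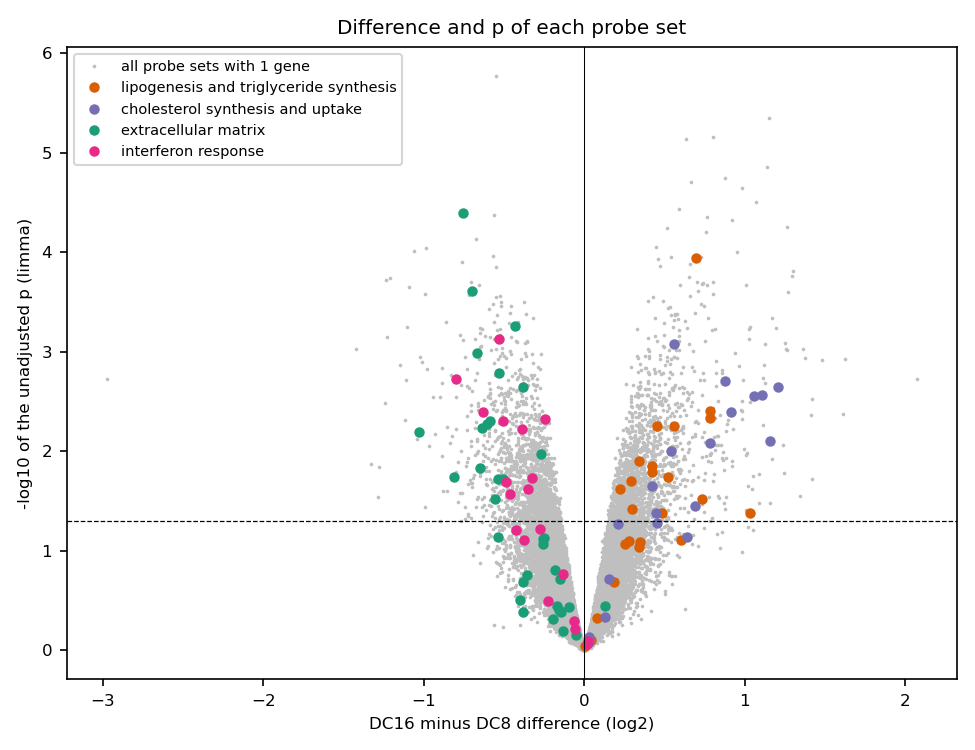
DC16 minus DC8 difference (x axis, log2) against -log10 of the unadjusted limma p (y axis) for each probe set with 1 gene, with 4 lists in colour and a dashed line at an unadjusted p of 0.05. Lipogenesis and cholesterol genes lie right of 0 and matrix genes left of it, with Dcn the only matrix gene on the right.

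Interferon response genes were lower as a group. Of 19 measured genes 17 had a negative difference, 10 were lower and 0 higher at an unadjusted p under 0.05, and the median was -0.35. Rsad2, the antiviral protein viperin, was 11.52, 11.35, 11.29, 11.13 and 11.03 in DC16 mice, against 11.44, 11.66, 11.82, 11.78, 12.26, 11.80 and 11.77 in DC8 mice. The groups met through DC16 mouse 1 and DC8 mouse 1, and the difference was -0.53 (SE 0.12, adjusted p = 0.229). Ifit2 averaged 8.56 ± 0.47 in DC16 and 9.35 ± 0.37 in DC8, Oasl1 9.78 ± 0.48 in DC16 and 10.41 ± 0.24 in DC8, and Irf7, a regulator of the response, 8.00 ± 0.48 in DC16 and 8.49 ± 0.27 in DC8. Mx2 was the only member without overlap, at 6.88 ± 0.06 in DC16 and 7.13 ± 0.11 in DC8. Irf1 and Iigp1 were not lower (0.02 each).

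The element bound by interferon-activated factors (GAAA, any 2 bases and GAAA, on either strand) was found in 8 of the 14 of these genes with a window. It was found in 3.99% of all genes with a window. Here too the share follows from the members of the list and not from their signal. The element is shown in capitals for Rsad2, the member with the smallest p, in the window at chr12:26456403-26456702 (minus strand), where the reverse strand holds it. The first listed windows of Ifit2 and Oasl1, next by p among the matched genes, held 0 matches of it and are not printed.
Rsad2: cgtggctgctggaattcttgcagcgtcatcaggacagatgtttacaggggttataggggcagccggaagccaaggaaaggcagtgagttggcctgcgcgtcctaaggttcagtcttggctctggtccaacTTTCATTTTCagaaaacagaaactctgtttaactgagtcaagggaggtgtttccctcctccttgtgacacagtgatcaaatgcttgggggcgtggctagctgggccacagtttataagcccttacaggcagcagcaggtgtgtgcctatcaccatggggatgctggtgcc

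Beside these, of 25 chemokine, cytokine and NF-kB genes 4 were lower and 0 higher (16%, beside 9.71% of all genes). Cxcl5, a neutrophil chemokine, was at 9.47 in DC16 and 10.51 in DC8. Of 14 antigen presentation genes 3 were lower (21.4%). B2m, the light chain of class I molecules, was at 14.11 in DC16 and 14.32 in DC8 without overlap, and the other 2 were Tapbp and Cd74. Without DC16 mouse 4 this count was 0. In complement and acute phase genes the members divided, with 3 lower, among them C2 and Cfb, and 2 higher, the acute phase proteins Saa1 (6.85 in DC16, 6.05 in DC8) and Saa3. All 10 macrophage markers stayed out of both counts, with a mean level of the list of 8.77 to 9.74 in DC16 and 9.05 to 9.76 in DC8. Jchain, the chain that joins antibodies of plasma cells, averaged 8.53 in DC16 and 7.12 in DC8, and was the only 1 of 5 B cell and plasma cell markers past an unadjusted p under 0.05.

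Cell division genes were lower in DC16 at low signal. Of 30 genes 26 had a negative difference, and the median was -0.27. At an unadjusted p under 0.05, 8 were lower and 0 higher (26.7%, beside 9.71% of all genes). Top2a, a topoisomerase of dividing cells, was 6.67, 5.13, 5.41, 4.99 and 5.08 in DC16 mice, against 5.84, 5.75, 5.81, 6.72, 6.79, 6.80 and 7.26 in DC8 mice. DC16 mouse 1 lay inside the DC8 range, and the other 4 DC16 mice lay below it. Cdk1, the mitotic kinase, averaged 5.37 ± 0.26 in DC16 and 5.90 ± 0.28 in DC8, Birc5 4.10 ± 0.24 in DC16 and 4.60 ± 0.27 in DC8, and Rrm2 5.01 ± 0.40 in DC16 and 5.68 ± 0.40 in DC8. Pcna averaged 12.35 in DC16 and 12.34 in DC8. Without DC16 mouse 4 and DC8 mouse 3, 12 of the 30 were lower.

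Imprinted growth genes were mostly lower, by wide margins in a few members. Nnat, an imprinted membrane protein, was 7.27, 8.64, 8.22, 6.46 and 7.71 in DC16 mice, against 9.81, 9.42, 9.38, 8.99, 8.18, 9.27 and 8.49 in DC8 mice, a difference of -1.42 (SE 0.34, adjusted p = 0.243). Mest, an imprinted gene whose level tracks fat growth in mice, was 8.56, 9.93, 9.13, 7.54 and 9.15 in DC16 mice, against 11.15, 10.05, 10.39, 10.07, 9.77, 9.30 and 9.99 in DC8 mice. In both genes DC16 mouse 4 was the lowest and the groups overlapped. Of the 23 genes of the list 18 had a negative difference. At an unadjusted p under 0.05, 5 were lower and 1, Cdkn1c, higher (26.1%, beside 9.71% of all genes). The mean level of the list was 8.17 to 8.25 in DC16 mice and 8.34 to 8.59 in DC8 mice, without overlap. Peg3 averaged 9.83 ± 0.72 in DC16 and 10.41 ± 0.50 in DC8, and Igf2 and Dlk1 differed by -0.19 and -0.16.

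Amino acid and stress genes followed. Of 15 serine synthesis and ATF4 target genes 5 were lower and 1 higher (40%, beside 9.71% of all genes). Mthfd2, of mitochondrial folate metabolism, was at 8.10 in DC16 and 8.55 in DC8. Psph, the last enzyme of serine synthesis, was at 10.95 in DC16 and 10.16 in DC8. Of 19 NRF2 and thioredoxin genes 6 were lower and 0 higher (31.6%), among them Sod3 (-0.50) and Txnrd1 (-0.60). The list median was -0.13, and -0.02 without DC16 mouse 4 and DC8 mouse 3. Of 20 endoplasmic reticulum chaperones 18 had a negative difference, and 4 were lower and 1 higher at an unadjusted p under 0.05 (25%). The mean level of that list was 9.89 to 10.30 in DC16 mice and 10.31 to 10.48 in DC8 mice, so the groups narrowly did not meet. Manf, a secreted stress factor, was at 9.82 in DC16 and 10.34 in DC8 without overlap. Without DC8 mouse 3 the chaperone count was 2 lower and 0 higher. Ribosomal protein genes had 3 of 13 lower (23.1%), and 1 without DC16 mouse 4 and DC8 mouse 3. Clock genes had 1 of 18 lower (5.56%, beside 5.51% of all genes), and without DC16 mouse 4 and DC8 mouse 3 they had 0 lower and 1 higher. The 28 immediate early genes had 2 higher and 0 lower with all mice (7.14%, below the 9.71% of all genes). Without DC16 mouse 4 they had 8 higher, where 790 of all 18193 genes were higher.

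**Figure D4:**
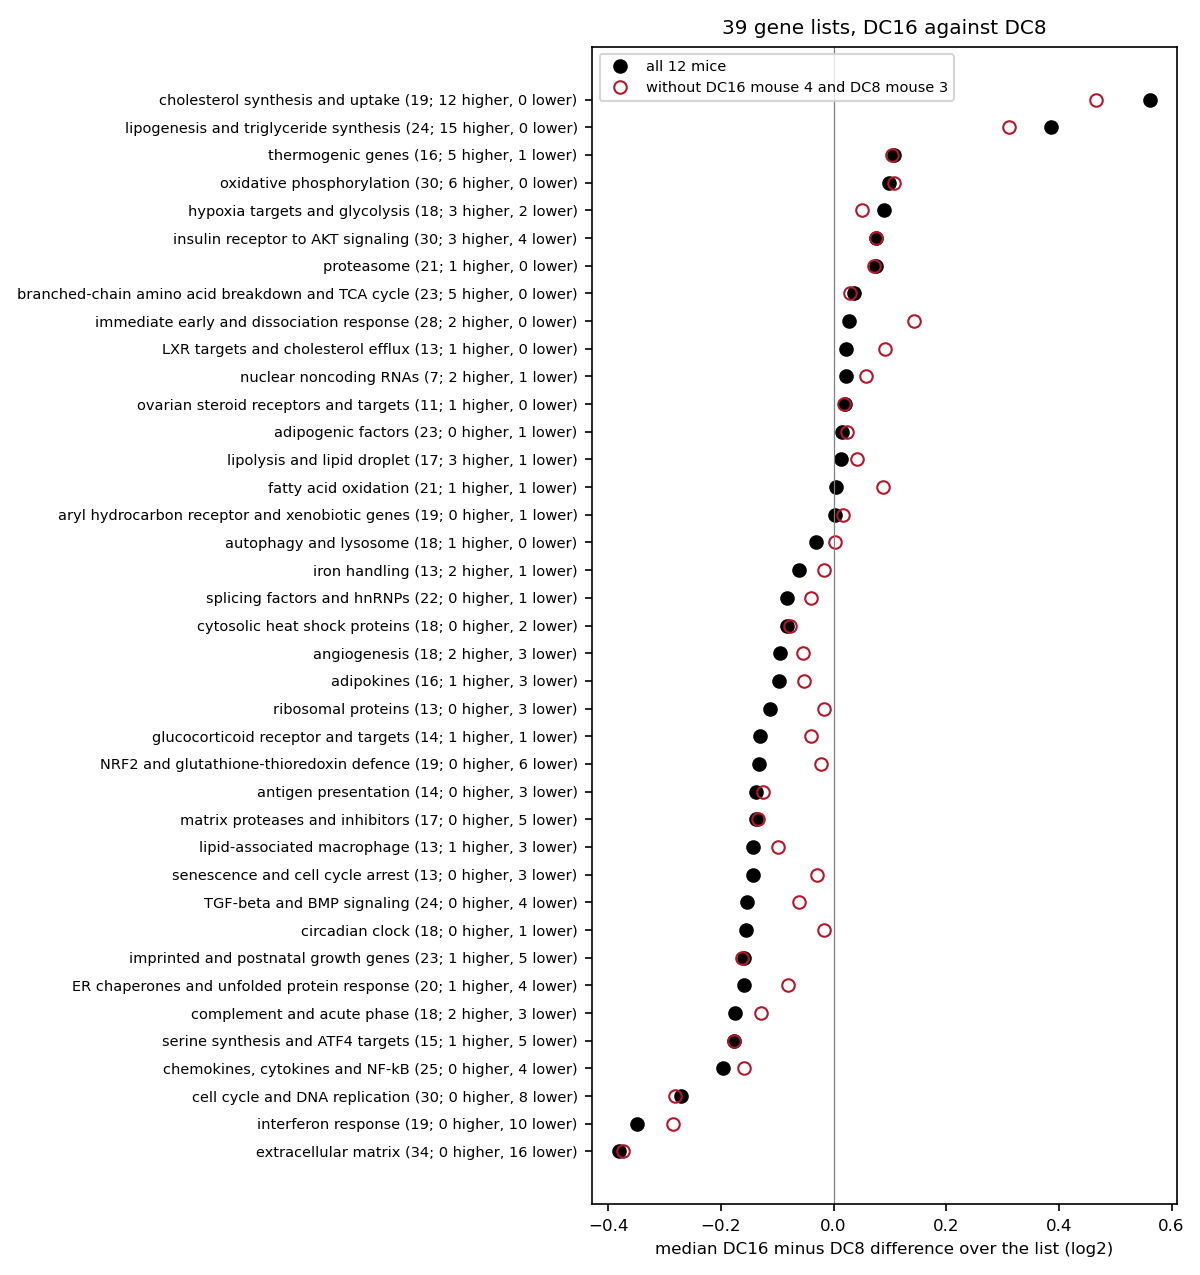
Median DC16 minus DC8 difference (x axis, log2) of each pathway list (y axis, with the number of genes measured and the number higher and lower at an unadjusted p under 0.05), for all 12 mice in black and without DC16 mouse 4 and DC8 mouse 3 as open rings. The 2 lipid synthesis lists lie at 0.56 and 0.39, the matrix list at -0.38, and most other lists lie within 0.2 of 0.

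Insulin signaling genes past an unadjusted p under 0.05 lay in both directions. Of 30 genes 3 were higher and 4 lower (23.3%, beside 9.71% of all genes), with a median of 0.07. A positive difference was found in 23 and a negative in 7, where 45.4% of all genes were positive. Without DC16 mouse 4, 6 were higher and 3 lower, and without DC8 mouse 3 as well 6 were higher and 2 lower. Grb14, an adaptor that inhibits the insulin receptor, was 6.72, 6.75, 6.51, 7.04 and 6.67 in DC16 mice, against 6.93, 7.94, 7.20, 7.20, 7.52, 6.95 and 7.56 in DC8 mice. DC16 mouse 4 was the only DC16 mouse within the DC8 range, and the difference was -0.59 (SE 0.16, adjusted p = 0.285). Gys1, the muscle-type glycogen synthase, averaged 10.32 ± 0.21 in DC16 and 9.96 ± 0.13 in DC8 without overlap, and Slc2a4, the insulin-responsive glucose transporter GLUT4, 11.86 ± 0.22 in DC16 and 11.44 ± 0.21 in DC8. Irs3, an insulin receptor substrate of rodent fat, averaged 6.64 ± 0.32 in DC16 and 7.10 ± 0.27 in DC8.

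The genes that the deletions target are heterozygous in both groups. Insr averaged 9.29 ± 0.28 in DC16 and 9.15 ± 0.20 in DC8, Irs1 11.03 ± 0.36 in DC16 and 10.97 ± 0.38 in DC8, and Irs2 10.05 ± 0.15 in DC16 and 9.79 ± 0.27 in DC8. In EC16 mice, which carry 2 intact copies of Insr, it averaged 10.17. Klf4 (0.04) and Tsc2 (0.15), which the study followed, differed by less than 2 SE. Lep, which encodes leptin, averaged 10.39 ± 0.49 in DC16 and 10.82 ± 0.13 in DC8 (adjusted p = 0.455). Apoe, deleted in every mouse, averaged 7.42 ± 0.45 in DC16 and 7.10 ± 0.52 in DC8. These 7 genes and Adipoq had adjusted p-values from 0.455 to 0.962.

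The time difference was then set beside that of mice on a Western diet, which share no array with DC16 or DC8. In this comparison 7 DW16 and 3 EW16 arrays span a narrower range of signal than the rest (SD 2.11 to 2.35, against 2.39 to 2.53), so the values here leave them out, which leaves 2 DW16 and 5 EW16 mice. Of the 183 probe sets at an unadjusted p under 0.001 on chow, 144 (78.7%) had a difference of the same sign in DW16 against DW8, where 54.3% of all probe sets did. The sign was shared by 112 (61.2%) in EW16 against EW8, where 49% of all did. With the narrow arrays kept, the shares were 65% and 63.4%. With all arrays, 2436 probe sets were called in DW16 against DW8 (5.41%) and 706 in EW16 against EW8 (1.57%). Without the narrow arrays the counts were 1 (0.00222%) and 9 (0.02%), and the fewer mice left also make a call harder.

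In D mice on the Western diet the lipogenesis list had a median time difference of 0.62 and the cholesterol list 0.59, with 22 of 24 and 17 of 19 genes positive, and 0.05 and 0.25 were the medians in E mice. With the narrow arrays kept, the lipogenesis median turned to -0.26 in D and -0.21 in E mice, and the cholesterol median was 0.20 in D and 0.10 in E mice. The matrix list had a median of -0.19 in D and -0.07 in E mice on Western diet, and the cell cycle list 0.03 and 0.23. With the narrow arrays kept, the matrix median was -1.07 in D and -0.48 in E mice, and that of the cell cycle list 0.07 and 0.24. Elovl3 differed by 1.45 between DW16 and DW8 and by 0.33 between EW16 and EW8, and Nnat by -2.42 and -1.38. With all arrays these were 0.48 and 0.40 for Elovl3, and -2.50 and -1.92 for Nnat. In EC16 mice, of the age and diet of DC16 but of another genotype, Elovl3 averaged 7.35 and Nnat 8.63. Their mean lipogenesis list level was 12.41 ± 0.48 (SD), against 12.82 in DC16 and 12.40 in DC8. That of the cholesterol list was 9.49 ± 0.50, against 10.00 in DC16 and 9.39 in DC8. For the matrix list it was 10.86, against 10.72 in DC16 and 11.12 in DC8. For the interferon list it was 9.61, against 9.38 and 9.71, and for the cell cycle list 6.28, against 6.12 and 6.38.

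The difference of the time effects was tested over all probe sets. The time difference on chow differed from that of D mice on Western diet for 2 probe sets at an adjusted p under 0.01 (0.00444%), and for 0 without the narrow arrays, where 2 DW16 mice remain. With all arrays the count was 2910 at an adjusted p under 0.05 and 12482 at an unadjusted p under 0.05. The small count at 0.01 therefore does not show that the time differences were alike. The time difference on chow differed from that of E mice on Western diet for 188 probe sets (0.417%), and for 174 (0.386%) without the narrow arrays, of which 84 were common to both. With all arrays that count was 1722 at an adjusted and 9649 at an unadjusted p under 0.05. In 184 of the 188 the chow difference was the more positive, and in 186 of the 188 the difference in E mice was the larger in size. None of the 30 genes named first was among the 84. Diet and genotype both differ between these mice and cannot be told apart.

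**Figure D5:**
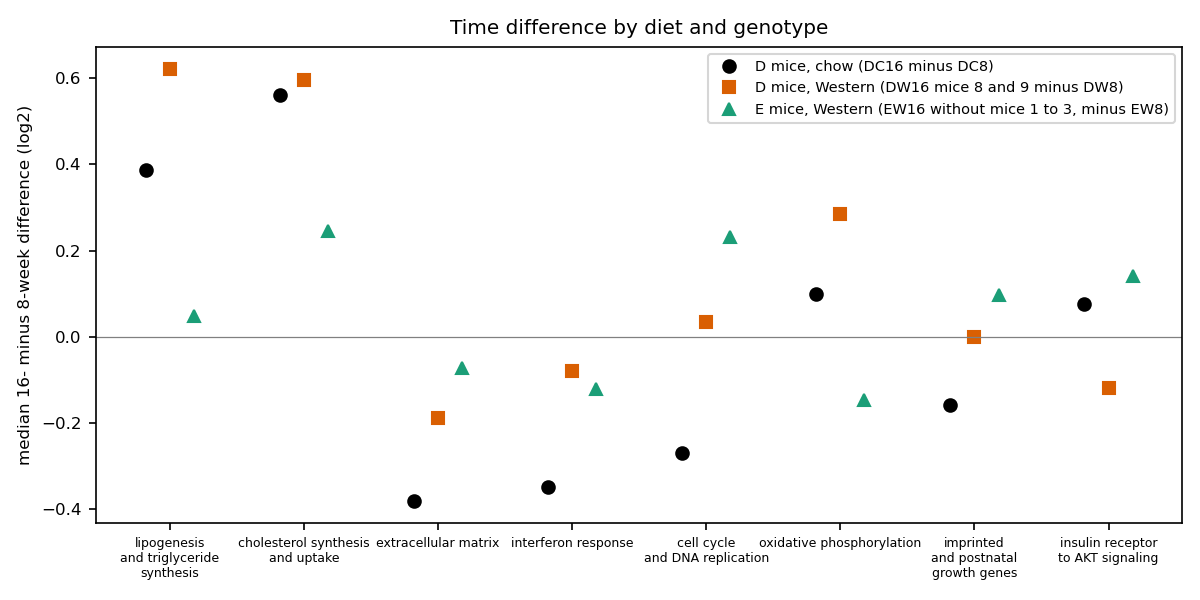
Median 16-week minus 8-week difference (y axis, log2) of 8 gene lists (x axis) in D mice on chow, in D mice on Western diet (2 DW16 mice) and in E mice on Western diet (5 EW16 mice), with the narrow-range arrays left out. The lipogenesis list lies at 0.39 on chow, 0.62 in D mice and 0.05 in E mice on Western diet, and with the narrow-range arrays kept it would lie at -0.26 in D and -0.21 in E mice on Western diet.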

How the data were processed

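The authors hybridized adipocyte RNA to Affymetrix mouse genome-wide arrays, 1 per mouse, and normalized the scans with RMA express. Each probe set has 1 deposited log2 value per mouse. The paper also speaks of quantile normalization among conditions, yet the SD of the deposited arrays ran from 2.11 to 2.53. The software's version is not given in the sources used here. No batch or date is in the labels. All 45 columns were mapped to a sample by label (0 left out).

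Differences are DC16 minus DC8, from a linear model in limma 3.58.1 (moderated by eBayes, R 4.3.3) of these 12 arrays. All 45037 probe sets entered the Benjamini-Hochberg adjustment, unfiltered, and the threshold was 0.01. p-values measure the spread between mice. Of the probe sets 34945 had 1 gene symbol, 932 several and 9160 none. In the lists each gene was read from its brightest probe set (highest average signal). Some probe sets can bind related transcripts. Named genes are the 15 per direction with the smallest p (none was called), the 4 smallest p of each list, and 8 fixed genes. Others were chosen after their values were seen. Members and lists were chosen with earlier results of these data known. SAM was written anew, with 100 label permutations, and its q takes the median count of false calls over them. Both were tested on simulated data. Promoter windows are from RefSeq. Figures used matplotlib 3.10.9 in Python 3.11.15. The number of arrays limits the precision. Alternatives were array weights, other scalings, a shared spread, a level filter, each mouse left out, and, added after seeing the data, the 2 mice that stood apart.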

Additional observations from a re-analysis of the deposited data

Results flagged for a closer look

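Dixon's test was run on the DC16 and the DC8 values of 38 named probe sets and of the mean levels of 5 lists, 86 groups of values in all, and 3 held a mouse far from the others. Chance flags about 1 in 20 groups. Syne2 was 7.61 in DC16 mouse 5, against 7.37 for the nearest DC16 mouse. Cyp26b1 was 7.11 in DC16 mouse 2, against 7.93 for the nearest. Sox11 was 5.57 in DC16 mouse 1, above the other 4 DC16 mice.

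The time difference on chow differed from that of D mice on Western diet for 2 probe sets and from that of E mice on Western diet for 188. Of the 2 the one with a gene name was Igkv8-30, an immunoglobulin segment. Among the 84 probe sets that differed from E mice with and without the narrow-range arrays, 44 had an unadjusted p under 0.05 on chow, beside 8.74% of all probe sets. The chow difference is part of the contrast that picked the 84, so a raised share is built in. In the 10 of them with a gene name and the widest gap, the time difference ran from -0.17 to 0.83 on chow and from -2.44 to -1.16 in E mice on Western diet without the narrow-range arrays, so that the E mice had the larger difference in each. Scoc, which had the widest gap, differed by 0.38 on chow and by -2.44 in E mice. Lamtor1, an anchor of mTORC1 on lysosomes, had the largest chow difference of the 10 (0.83) and -1.16 in E mice.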

How the results depend on the processing

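No probe set passed an adjusted p under 0.01 in any alternative fitted with limma, each mouse left out included. SAM alone called 8. At an adjusted p under 0.05, array weights gave 29, a covariate for array SD 10, a new quantile normalization 3, and leaving out DC16 mouse 1 gave 23 and DC8 mouse 1 gave 1. With 1 spread over all 7 groups, 1179 probe sets were higher and 1055 lower at an unadjusted p under 0.05, with 3 lipogenesis and 8 matrix genes, and with probe sets above the median level only 1330 were higher and 1180 lower, with 5 cell cycle genes. Array weights gave 17 cell cycle genes. Replicate numbers did not pair the mice (correlations of same-numbered deviations from -0.27 to 0.10). The replicate block over mice 1 to 5 gave 1176 lower probe sets and 4 cell cycle genes, and 0 called with or without it. Leaving out each mouse gave 5 to 12 cell cycle genes. The NRF2 list median was -0.13 and turned to 0.0016 with array weights. Medians of the 5 leading lists kept their sign. Of the 30 leading genes, 0 of 658 values turned sign. Those genes were picked for the smallest p in these same arrays, so a kept sign says little about them. Over all 38 named probe sets 4 of 834 values turned sign, all of them in the 8 fixed genes. The difference from D mice on Western diet gave 13 with arrays centred, 60 with quantile normalization, 2910 at an adjusted p under 0.05 and 0 without the narrow arrays. That from E mice gave 48 with quantile normalization and 1722 at 0.05. Leaving out each mouse gave 1725 to 2578 higher and 1411 to 2281 lower probe sets. The cause was not tested.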
